A study of Mus musculus with 2 samples.

Results

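Messenger RNA levels of 10 genes of iron and metal handling were described in acid-secreting parietal cells of the stomach, out of 38087 genes in the deposited tables. The genes were taken by name: the hepcidin genes Hamp and Hamp2, the ferritin genes Fth1 and Ftl1, the iron importers Tfrc and Slc11a2, the iron exporter Slc40a1, the iron sensor Ireb2 and the metallothionein genes Mt1 and Mt2. All 10 were found. The parietal cells were sorted from the stomachs of C57BL/6 mice fed a high fat diet (HFD) or from control mice of the same strain, and each group was represented by 1 library of ribosome-depleted total RNA. The sorting markers, the composition and duration of the diets, the age and sex of the mice and the number of mice pooled in a library are not stated in the available labels. With 1 library per group no difference between the groups could be tested, and every difference below is between these 2 libraries.

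Hepcidin is a small secreted peptide that binds ferroportin, the product of Slc40a1 and the iron exporter of animal cells, and removes it from the cell surface. Ferritin stores iron inside a shell of H and L chains, which Fth1 and Ftl1 encode. Transferrin receptor, encoded by Tfrc, takes up iron bound to transferrin, and the divalent metal transporter encoded by Slc11a2 carries iron across the endosomal or apical membrane. When iron is scarce, iron regulatory proteins bind short hairpins called iron-responsive elements (IREs). Binding in the 5′ untranslated region blocks translation, and binding in the 3′ untranslated region of Tfrc stabilises the transcript. Metallothioneins are cysteine-rich proteins that hold zinc and copper, and their genes are switched on through metal response elements and by glucocorticoids. In the stomach, hepcidin has been located in parietal cells.

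The IREs are shown because they sort the genes into those whose translation and those whose transcript stability iron is known to control. A search of annotated transcripts (GENCODE M21, GRCm38) looked for a C, 5 bases, a loop of CAGTGN and 5 bases that pair with the first 5, G with T allowed. At least 1 match lay anywhere in the annotated transcripts, coding sequence included, of 294 of 21901 protein-coding genes (1.34%). Of the 10 genes, Fth1, Ftl1 and Slc40a1 held 1 match each in the 5′ region and Tfrc held 4 in the 3′ region. No match to these letters was found in the other 6, Slc11a2 among them. The pattern allows no gap or mismatch in the 5 pairs and would miss an IRE of another shape. A gene without a match is therefore not shown to lack an IRE. The sequences are given 5′ to 3′ as DNA, 29 bases each including flanks, with the loop in capitals.
Fth1 (chr19:9982732-9982760, plus strand): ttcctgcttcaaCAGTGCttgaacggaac
Ftl1 (chr7:45459779-45459807, minus strand): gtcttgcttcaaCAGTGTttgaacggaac
Slc40a1 (chr1:45925465-45925493, minus strand): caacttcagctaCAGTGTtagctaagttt
Tfrc (chr16:32631219-32631247, plus strand): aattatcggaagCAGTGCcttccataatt
Tfrc (chr16:32631598-32631626, plus strand): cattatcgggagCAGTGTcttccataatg
Tfrc (chr16:32631663-32631691, plus strand): ctatatcggagaCAGTGAtctccatatgt
Tfrc (chr16:32631710-32631738, plus strand): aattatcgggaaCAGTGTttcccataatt

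Both metallothionein genes were lower and both hepcidin genes higher in the HFD library as deposited, so the 250 bases before the RefSeq start of each (GRCm38.p6) are shown as well. Capitals mark matches to 3 motifs searched on both strands: the metal response element core (TGCACNC or TGCGCNC) in Mt1 and Mt2, and the core of the bone morphogenetic protein (BMP) responsive element known from hepcidin genes (GGCGCC) and a STAT motif (TTCNNNGAA) in Hamp and Hamp2. The last capitals of Mt2 are a core read on the opposite strand.
Hamp (chr7:30944030-30944279, minus strand): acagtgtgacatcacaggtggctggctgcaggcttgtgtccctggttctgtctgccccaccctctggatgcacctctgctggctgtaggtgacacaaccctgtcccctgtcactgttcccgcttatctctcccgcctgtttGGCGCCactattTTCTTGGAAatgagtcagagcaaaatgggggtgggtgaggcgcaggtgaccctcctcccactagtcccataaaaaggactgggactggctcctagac
Hamp2 (chr7:30924182-30924431, minus strand): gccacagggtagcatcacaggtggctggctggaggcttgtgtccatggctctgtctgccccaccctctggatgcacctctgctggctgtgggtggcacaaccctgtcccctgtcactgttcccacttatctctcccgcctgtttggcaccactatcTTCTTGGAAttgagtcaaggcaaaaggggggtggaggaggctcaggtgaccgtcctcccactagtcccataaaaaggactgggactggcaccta
Mt1 (chr8:94178839-94179088, plus strand): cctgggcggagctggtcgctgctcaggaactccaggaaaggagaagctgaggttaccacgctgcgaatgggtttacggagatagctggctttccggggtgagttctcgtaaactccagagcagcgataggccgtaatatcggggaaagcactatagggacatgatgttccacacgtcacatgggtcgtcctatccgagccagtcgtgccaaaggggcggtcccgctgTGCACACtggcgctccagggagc
Mt2 (chr8:94172368-94172617, plus strand): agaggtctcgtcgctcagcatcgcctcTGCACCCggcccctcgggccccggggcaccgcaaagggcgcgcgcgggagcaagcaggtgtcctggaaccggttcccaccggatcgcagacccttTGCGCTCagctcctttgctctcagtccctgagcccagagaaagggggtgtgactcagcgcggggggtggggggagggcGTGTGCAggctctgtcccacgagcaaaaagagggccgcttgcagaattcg
The Hamp2 stretch lies inside an intron of 1 annotated Hamp2 transcript. The Hamp and Hamp2 stretches were identical at 227 of 247 aligned bases (91.9%), and 1 of the 20 substitutions, G145A counted from 1 at the 5′ end of the Hamp stretch with the Hamp base first, falls inside GGCGCC. That motif was present in Hamp and absent from Hamp2, and 11.9% of 32851 RefSeq windows (250 bases before to 50 after a start) held it. The STAT motif occurred 1 time in each hepcidin gene and in 8.30% of windows. The metal response element core occurred 3 times in the Mt1 window, 1 of them before the RefSeq start. It occurred 4 times in the Mt2 window, 3 of them before the RefSeq start. Bases outside these windows were not searched, so the counts need not cover every core near these genes. At least 3 copies were present in 1.97% of all windows, at least 4 in 0.517% and at least 1 in 25.7%. In the Tfrc window 1 core match on each strand overlapped the other. A match is a description of letters and does not show binding.

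**Figure D1:**
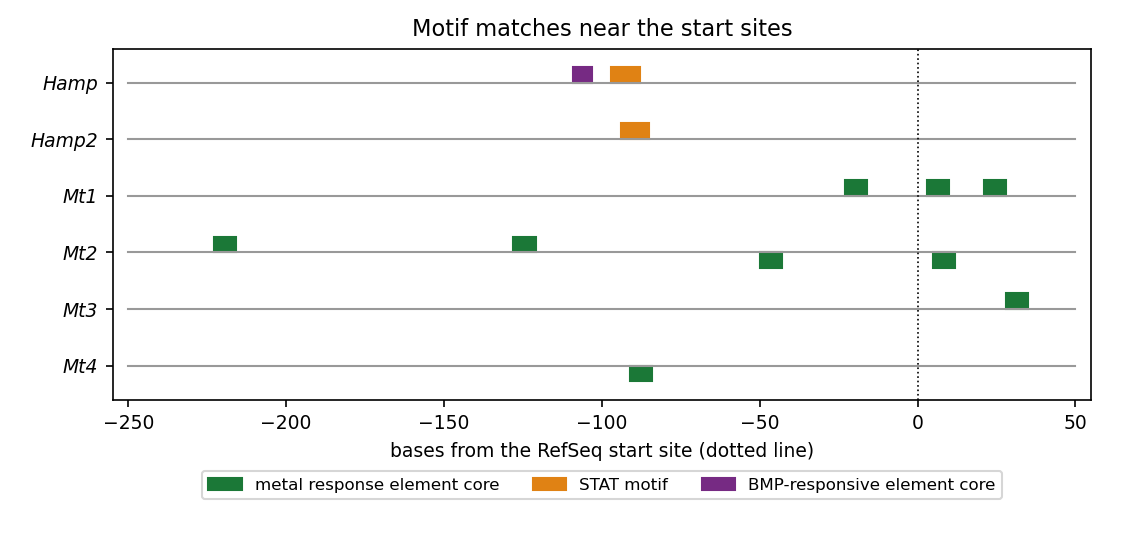
Matches to 3 motifs in the window of each gene, in bases from the RefSeq start, for the hepcidin genes and the 4 metallothionein genes; boxes above a line are on the gene's strand and boxes below it on the opposite strand. Mt1 has 3 and Mt2 has 4 metal response element cores, Mt3 and Mt4 have 1 each, and only Hamp among the genes drawn has the BMP-responsive core.

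Values are RPKM, reads per kilobase of gene and per M reads of depth, and genes at or below 1 RPKM are listed at 0 in the deposited tables. The depth estimated from the spacing of low values was 25.5 M reads under HFD, against 9.84 M in the control. Intervals are 95% counting intervals from reads estimated with annotated exon lengths; they are approximate and leave out all variation between mice. All 10 parietal markers were listed in both libraries, with summed levels of 11156 RPKM under HFD, against 9035 RPKM in the control library. The sum is set mostly by the most abundant of them. Singly, 9 were higher and 1 lower in the HFD library, with ratios of RPKM from 0.907 to 2.96. Markers of other cell types were listed as well: 4 chief cell markers summed to 46051 and 102874 RPKM, 5 pit cell markers to 33354 and 11923 RPKM, 6 endocrine markers to 1211 and 8296 RPKM, and 12 pancreatic acinar markers to 1815 RPKM, with 9 of the 12 listed at 0, and 13754 RPKM (HFD, then control). In a bulk library fewer cells of a type and less RNA per cell cannot be told apart. The part of parietal cell content and of these other cells in the differences below was not tested.

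The 10 genes covered the range from the floor to the top percent of listed protein-coding genes. In the HFD library the order of levels was Hamp2, Ftl1, Fth1, Mt1, Mt2, Tfrc, Slc11a2, Hamp, Ireb2 and, listed at 0, Slc40a1. In the control library it was Mt1, Fth1, Ftl1, Mt2, Hamp2, Tfrc, Ireb2, Hamp, Slc11a2 and Slc40a1. Counting intervals of neighbours in the order overlapped in the control library for Ftl1 with Mt2, Ireb2 with Hamp and Hamp with Slc11a2. In the HFD library no neighbours overlapped, although the upper bound of Ftl1 (297 RPKM) and the lower bound of Hamp2 (298 RPKM) nearly met.

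**Figure D2:**
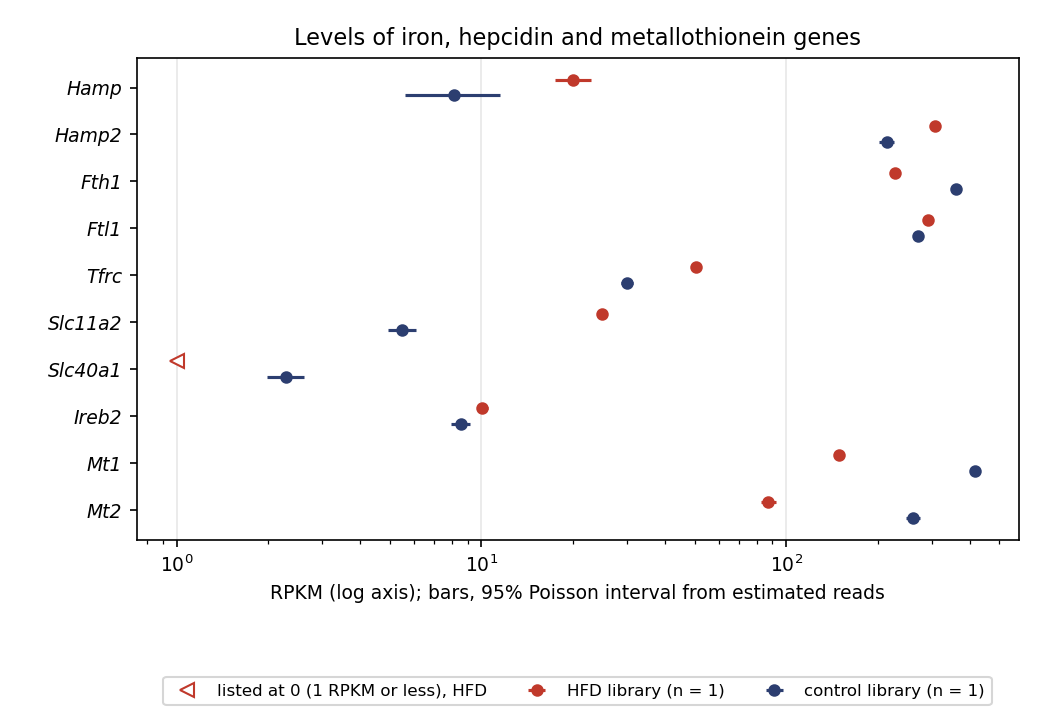
Level of each of the 10 genes in RPKM (log axis), HFD library in red and control library in blue, with 95% Poisson intervals from estimated reads; the open triangle marks a gene listed at 0. Slc11a2 and Hamp stand farther right in the HFD library, Mt1, Mt2 and Fth1 farther right in the control library.

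Of the 9 genes listed in both libraries, 6 were higher and 3 lower in the HFD library, and 2 (Hamp and Slc11a2) were more than 2-fold higher and 2 (Mt1 and Mt2) more than 2-fold lower. Over all 12439 genes listed in both libraries, 10.6% were more than 2-fold higher and 13.1% more than 2-fold lower. On the log2(RPKM + 1) scale, which also takes genes listed in 1 library, 2 of the 10 were more than 2-fold higher and 3 lower (Slc40a1 as the third), against 12.5% and 23.9% of 16037 genes. Among protein-coding genes alone the shares were 7% higher and 12.5% lower of those listed in both libraries, and 8.02% higher and 20.1% lower of those listed in either. The median difference of the 10 was 0.16 on that scale, beside -0.13 for all measured genes. It was -0.44 when the HFD values were scaled to a total that left out the 20 most abundant genes, a scaling that moved the median of all measured genes to -0.66, so the sign of the group median is not fixed. The counts are small, and no statement on the 10 genes as a group rests on them.

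Hamp2 was the more abundant hepcidin transcript in both libraries. Hamp2 (ENSMUSG00000056978, chr7:30922372-30924681, minus strand, mm10), the second mouse hepcidin gene, whose product is not known to control iron, stood at 307 RPKM under HFD, against 213 RPKM in the control library, a ratio of 1.44 (interval 1.35 to 1.54). Its level was at percentile 99.4 of listed protein-coding genes under HFD, against 99.2 in the control library. Its direction held as deposited and under 3 of the 4 other scalings and turned to -0.12 (log2 ratio) without the 20 most abundant genes. Hamp (ENSMUSG00000050440, chr7:30942368-30944032, minus strand), which encodes the hepcidin that acts on ferroportin, stood at 20.02 RPKM under HFD, against 8.10 RPKM in the control library. The ratio was 2.47 (interval 1.69 to 3.64), from about 209 and 33 reads, and the log2 ratio ranged from 0.66 to 1.60 over the 4 other scalings, positive in all and under 2-fold at its lowest.

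The balance of the hepcidin pair also differed. Hamp2 was 15.3 times Hamp under HFD, against 26.4 times in the control library, a ratio of ratios of 0.582 (interval 0.393 to 0.859), which no scaling of a library can move. Hamp2 made up 93.9% of the pair's summed RPKM under HFD, against 96.3% in the control library. The transcripts are 94.6% identical over 410 aligned bases, and how the authors counted reads that match both is not stated in the available labels, so the split between Hamp and Hamp2 is uncertain. Their sum was 327 RPKM under HFD, against 221 RPKM in the control library, a ratio of 1.48.

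Hepcidin is best known from hepatocytes and Hamp2 also from pancreas, and both sets of markers were read beside them. Of 8 hepatocyte markers, 2 were listed under HFD, against 6 in the control library, and their sums of 1589 and 1346 RPKM came almost wholly from Apoa1, which intestine also makes (1576 RPKM under HFD, against 1259.7 RPKM in the control library). Alb was listed at 0 under HFD and at 1.13 RPKM in the control library, and Fgb and Cyp2e1 were at 0 in both. The pancreatic acinar markers were lower in the HFD library in 12 of 12 cases. Of the 4 islet markers Ins1, Ins2 and Iapp were at 0 in both libraries, and Gcg, the glucagon gene, stood at 6.82 RPKM under HFD, against 4.49 RPKM in the control library. The part of such cells in the hepcidin levels was not tested.

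The ferritin genes differed from each other in direction as deposited. Fth1 (ENSMUSG00000024661, chr19:9980598-9985098, plus strand), the H chain with the ferroxidase activity, stood at 227 RPKM under HFD, against 359.8 RPKM in the control library. That is 1.59 times lower in the HFD library (interval 1.55 to 1.62), with a log2 ratio of -0.67 that ranged from -1.31, past 2-fold, to -0.37 over the other scalings. Ftl1 (ENSMUSG00000050708, chr7:45457944-45459884, minus strand), the L chain that aids iron mineralisation, stood at 292 RPKM under HFD, against 269.8 RPKM in the control library. The ratio was 1.08 (interval 1.04 to 1.12), a log2 ratio of 0.11 that turned to -0.53 without the 20 most abundant genes. Within a library, Fth1 was 0.777 times Ftl1 under HFD, against 1.33 times Ftl1 in the control library. The ratio of these ratios was 0.583 (interval 0.557 to 0.609). Which chain was the more abundant in the control library depends on the copies described next.

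Ferritin genes have processed copies that can share reads with them. Ftl1-ps1, 99.6% identical over 910 bases and annotated as protein-coding, stood at 153 RPKM under HFD, against 195 RPKM in the control library. Ftl2-ps, 98.7% identical over 552 bases, stood at 120.9 RPKM under HFD, against 170.4 RPKM in the control library. Ftl1-ps2 was low in both, at 5.66 and 4.77 RPKM (HFD, then control). Ftl1 summed with these 3 copies came to 572 RPKM under HFD, against 640.0 RPKM in the control library, a log2 ratio of -0.16, so the sign for Ftl1 depends on where shared reads were counted. Fth-ps2, 86.0% identical to Fth1 over 514 bases, stood at 7.69 RPKM under HFD, against 14.8 RPKM in the control library, and Fth1 summed with it had a ratio of 0.625. With copies summed, Fth1 was 0.410 times Ftl1 under HFD, against 0.585 times in the control library, so the L chain was then the more abundant in both, and the order in the control library turned. The sum of both ferritin genes without copies was 518 RPKM under HFD, against 629.6 RPKM in the control library, a ratio of 0.823.

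Both importers were higher in the HFD library as deposited and under each of the 4 other scalings. Tfrc (ENSMUSG00000022797, chr16:32608920-32632794, plus strand), in whose 3′ region the search found 4 IREs, stood at 50.5 RPKM under HFD, against 30.1 RPKM in the control library. The ratio was 1.68 (interval 1.59 to 1.77). Its log2 ratio under the other scalings ranged from 0.10 to 1.04, the last just past 2-fold. Slc11a2 (ENSMUSG00000023030, chr15:100387898-100425072, minus strand) had the highest ratio of the 9 genes listed in both libraries, with 24.8 RPKM under HFD, against 5.49 RPKM in the control library. The ratio was 4.52 (interval 4.05 to 5.06), from about 4018 and 343 reads, and the log2 ratio ranged from 1.53 to 2.47 over the other scalings. Among listed protein-coding genes Slc11a2 stood at percentile 85.1 under HFD, against 41.7 in the control library. A gene on the opposite strand that overlaps Slc11a2, Gm5475, was listed at 0 in both libraries. Absorptive cells of the intestine are known for Slc11a2, and of 6 of their markers 4 were higher and 1 lower in the HFD library, with sums of 74.9 RPKM under HFD, against 57.5 RPKM in the control library. Fabp2 stood at 12.6 RPKM under HFD, against 6.23 RPKM in the control library, Alpi and Cybrd1 were listed under HFD alone, at 1.17 and 2.92 RPKM, and the defining gene Sis was at 0 in both. The part of such cells in the Slc11a2 and Tfrc levels was not tested.

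Comparisons of genes within a library do not depend on scaling. Fth1 was 4.49 times Tfrc under HFD, against 11.95 times Tfrc in the control library, a ratio of ratios of 0.376 (interval 0.355 to 0.397). Tfrc was 2.03 times Slc11a2 under HFD, against 5.48 times in the control library. Relative to Tfrc, Fth1 was thus lower and Slc11a2 higher in the HFD library.

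**Figure D3:**
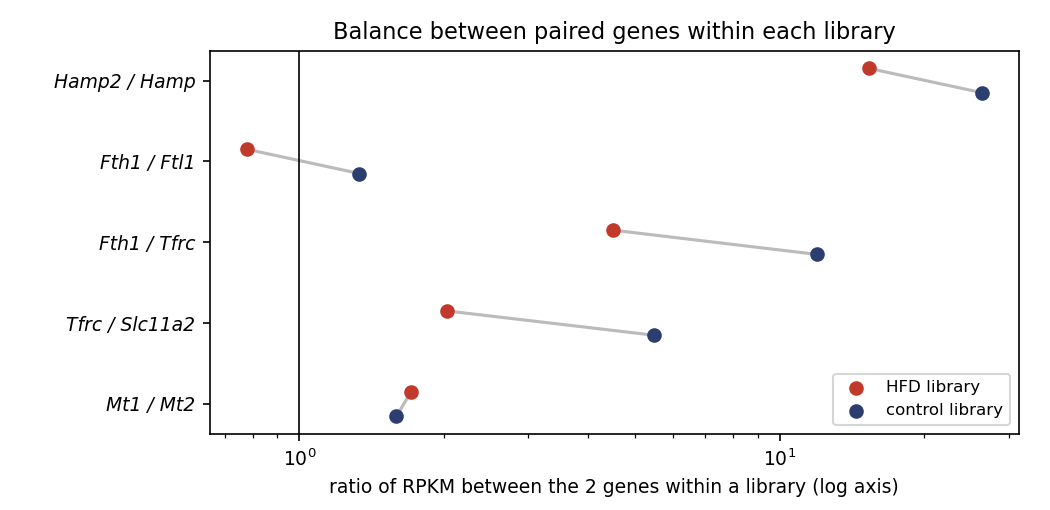
Ratio of RPKM between 2 genes of the same library (log axis), HFD library in red and control library in blue, joined for each pair. The Mt1 to Mt2 ratio is nearly the same in both libraries (1.71 and 1.59), and the Fth1 to Ftl1 ratio is 0.777 in HFD and 1.33 in control for the genes alone; with related copies summed, an alternative not drawn, it is 0.410 and 0.585, both below 1.

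Slc40a1 (ENSMUSG00000025993, chr1:45908068-45926523, minus strand), the ferroportin gene on which hepcidin acts, was listed at 0 under HFD and at 2.28 RPKM in the control library (interval 1.98 to 2.62), about 202 reads. The control level was at percentile 15.8 of listed protein-coding genes. For this long gene the floor of 1 RPKM corresponds to about 229 reads at the depth of the HFD library, so a listing at 0 does not mean that reads were absent, and no fold is given. On the log2(RPKM + 1) scale the difference was -1.72, entering the 0 as 1 RPKM made it -1.19, and a pseudocount of 0.1 RPKM made it -4.58. Macrophages are rich in ferroportin, and 5 of 9 macrophage markers were listed under HFD, against 3 of 9 in the control library, with sums of 18.6 and 3.78 RPKM. Of these, C1qb stood at 8.91 RPKM under HFD, against 1.01 RPKM in the control library, and Cd68 at 4.26 RPKM under HFD, against 1.42 RPKM in the control library. Csf1r, C1qa and Vcam1 were listed under HFD alone, Lyz2 in control alone, and Adgre1, Cd163 and Marco in neither. Of the macrophage markers, 5 were thus higher and 1 lower in the HFD library. The part of such cells in the Slc40a1 level was not tested.

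Ireb2 (ENSMUSG00000032293, chr9:54863789-54912530, plus strand), an iron regulatory protein that binds IREs, stood at 10.1 RPKM under HFD, against 8.54 RPKM in the control library. The ratio was 1.18 (interval 1.09 to 1.28), and its log2 ratio of 0.24 turned to -0.41 without the 20 most abundant genes. With reads estimated from the shortest coding transcript the interval widened to 0.863 to 1.61, so a difference in Ireb2 was not detectable under that length. Aco1, which encodes the other iron regulatory protein, stood at 19.97 RPKM under HFD, against 27.4 RPKM in the control library, a ratio of 0.729 (interval 0.680 to 0.782).

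The metallothionein genes had the lowest ratios of the 9 genes listed in both libraries, and differed by nearly the same factor. Mt1 (ENSMUSG00000031765, chr8:94179082-94180327, plus strand) stood at 149 RPKM under HFD, against 415 RPKM in the control library, 2.78 times lower (interval 2.67 to 2.89). Mt2 (ENSMUSG00000031762, chr8:94172664-94173568, plus strand), 5513 bases away, stood at 87.3 RPKM under HFD, against 260.4 RPKM in the control library, 2.98 times lower (interval 2.77 to 3.21). Over the 4 other scalings the log2 ratio ranged from -2.12 to -1.18 for Mt1 and from -2.22 to -1.28 for Mt2, more than 2-fold lower in each. Mt1 was 1.71 times Mt2 under HFD, against 1.59 times in the control library, a ratio of ratios of 1.07 (interval 0.985 to 1.17). Together they stood at 237 RPKM under HFD, against 675 RPKM in the control library.

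The transcripts of Mt1 and Mt2 were 73.3% identical over 206 aligned bases. The related genes of the same cluster were low: Mt3, best known from brain, was listed at 0 under HFD and at 3.02 RPKM in the control library, and Mt4, best known from stratified epithelium, was at 0 in both. Markers that were lower in the HFD library beside Mt1 and Mt2 were those of pancreatic acinar cells (12 of 12), endocrine cells (5 of 6), chief cells (3 of 4), mucous neck cells (2 of 2), hepatocytes (5 of the 6 listed), erythroid cells (5 of the 5 listed) and of fibroblasts and smooth muscle (7 of 7, sums of 61.0 RPKM under HFD, against 267 RPKM in the control library). Their part in the metallothionein difference was not tested.

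**Figure D4:**
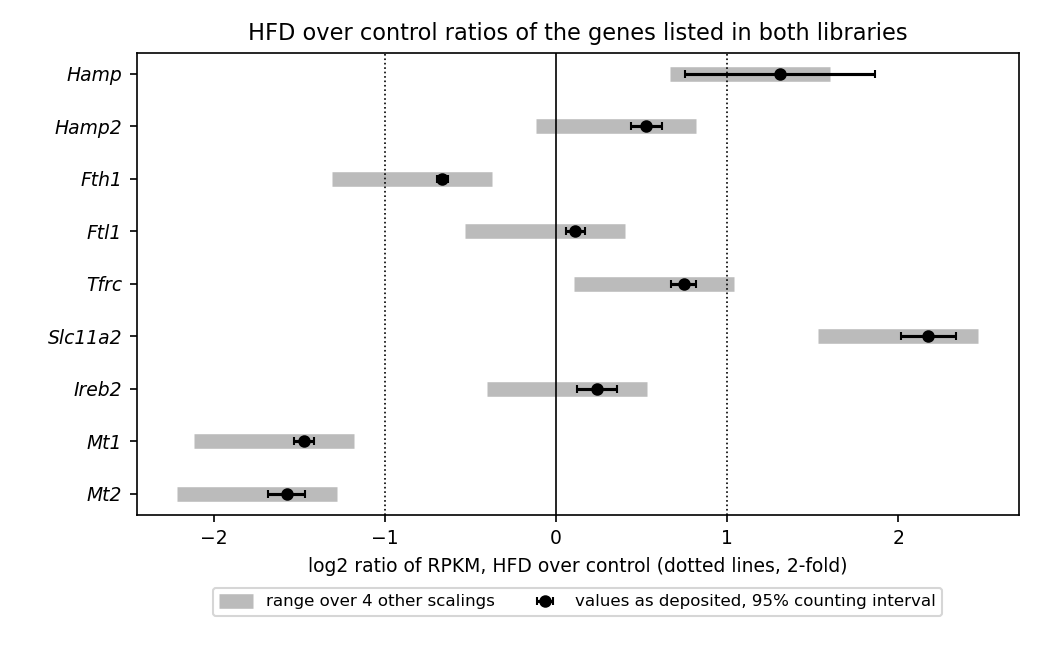
Log2 ratio of RPKM, HFD over control, for the 9 genes listed in both libraries; points and bars are the values as deposited with 95% counting intervals, grey bars the range over 4 other scalings and dotted lines 2-fold. Hamp2, Ftl1 and Ireb2 have grey bars that cross 0, while Mt1 and Mt2 stay below and Slc11a2 above 2-fold.

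Genes whose pair of levels was most like a member were found over the 2 libraries by Euclidean distance on log2 RPKM among protein-coding genes. Closest to Fth1, the gene of the highest mean level, were Calr (calreticulin) at 0.11, Psap (prosaposin) at 0.26 and Aes (a corepressor) at 0.27. Closest to Slc11a2 were Oas1a, an interferon-induced gene, and Slc35b3, a sulfate donor transporter, at 0.14 each and Ndufb2, a respiratory complex subunit, at 0.15. Closest to Mt2 were Gm11808 at 0.18, Rpl4 at 0.35 and Furin at 0.39. With 2 libraries the distance rests on 2 values per gene and describes levels only.

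Other genes of the iron pathway were read from lists chosen by role, with counts more than 2-fold on the log2(RPKM + 1) scale. Among the lists of more than 1 listed gene, the share more than 2-fold lower ran from 11.1% to 22.7%. None was above the 23.9% of all measured genes. Hepcidin regulators (22.7%, 5 of 22) and cytosolic storage and sensing (22.2%, 2 of 9) were slightly above the 20.1% of protein-coding genes. These counts are small and near that share. Of 14 further genes of iron uptake, 9 were listed in either library, 1 more than 2-fold higher (Cybrd1, a ferric reductase of the gut, at 2.92 RPKM under HFD and listed at 0 in control) and 1 lower (Trf, transferrin, listed at 0 under HFD and at 1.88 RPKM in control). Their median was 0.02, turning to -0.50 without the 20 most abundant genes. Hfe, which acts with transferrin receptor, stood at 4.50 RPKM under HFD, against 2.66 RPKM in the control library, a ratio of 1.69 (interval 1.35 to 2.15). Lrp1, a receptor for heme bound to hemopexin, stood at 14.8 RPKM under HFD, against 21.5 RPKM in the control library. Slc39a14, an importer of iron not bound to transferrin, was close in both, at 11.6 RPKM under HFD, against 12.45 RPKM in the control library.

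Of 10 genes of cytosolic storage and sensing, 9 were listed, none more than 2-fold higher and 2 lower. These were Pcbp1, an iron chaperone that loads ferritin, at 38.6 RPKM under HFD, against 102.6 RPKM in the control library (2.66 times lower), and Bola2, a partner in iron chaperoning, at 4.86 RPKM under HFD, against 14.4 RPKM in the control library (2.96 times lower). Ncoa4, the receptor for ferritin breakdown, had the highest ratio, 1.60 (interval 1.47 to 1.74), at 11.9 RPKM under HFD, against 7.41 RPKM in the control library. The list's median was -0.17 and turned to 0.09 when scaled to the total of protein-coding genes. Of 6 further genes of iron and heme export, 5 were at 0 in both libraries, among them the ferroxidase genes Heph, Hephl1 and Cp, and the heme exporter Flvcr1 was listed at 0 under HFD and at 1.08 RPKM in the control library.

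Of 24 genes that act on hepcidin or report its signals, 22 were listed, none more than 2-fold higher and 5 lower, with a median of -0.06 that turned to 0.22 when scaled to the total of protein-coding genes. The lower share was 22.7%, close to the 23.9% of all measured genes and the 20.1% of protein-coding genes, so it is not a result about this list. The 5 lower ones were Id1, Smad1, Furin, Bmp6 and Il6ra. Id1, a target of BMP signalling, stood at 52.7 RPKM under HFD, against 119.9 RPKM in the control library, 2.27 times lower. Smad1, a BMP signal transducer, stood at 2.59 RPKM under HFD, against 10.5 RPKM in the control library, 4.07 times lower. Furin, a protease that cleaves prohepcidin, stood at 77.5 RPKM under HFD, against 204 RPKM in the control library, 2.64 times lower. Bmp6, the main BMP of iron sensing in liver, and Il6ra, a receptor of inflammatory signalling, were listed at 0 under HFD and at 2.19 and 2.33 RPKM in the control library. Acvr2a, a BMP receptor, had the highest ratio, 1.77 (interval 1.55 to 2.02), at 8.88 RPKM under HFD, against 5.02 RPKM in the control library. Hfe2 and Tmprss6, which tune hepcidin in hepatocytes, were at 0 in both.

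Of 18 genes of heme metabolism, 17 were listed, 3 more than 2-fold higher and 3 lower, with a median of -0.02 that turned positive under 3 of the other scalings. Hmox1, the inducible heme oxygenase that frees iron from heme, had the highest ratio, 3.19 (interval 2.247 to 4.63), at 6.66 RPKM under HFD, against 2.09 RPKM in the control library, the control value from about 36 reads. Blvrb, a biliverdin reductase, was 2.93 times lower, at 8.30 RPKM under HFD, against 24.3 RPKM in the control library. Alas1, the first enzyme of heme synthesis outside red cells, was close in both, at 29.9 RPKM under HFD, against 30.4 RPKM in the control library. The erythroid Alas2 was listed at 0 under HFD and at 1.09 RPKM in the control library. The 7 erythroid markers, Alas2 among them, summed to 22.5 RPKM under HFD, against 64.8 RPKM in the control library, with the defining red cell gene Slc4a1 at 0 in both.

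All 23 genes of mitochondrial iron import and iron-sulfur clusters were listed, 1 of them more than 2-fold higher and 3 lower. The list's median was -0.17 and turned to 0.10 when scaled to the total of protein-coding genes. Hscb, a co-chaperone of cluster transfer, was 4.27 times lower at 1.48 RPKM under HFD, against 6.31 RPKM in the control library, from about 34 and 56 reads. Isca1, a late cluster assembly factor, had a ratio of 1.90 (interval 1.76 to 2.04), at 15.3 RPKM under HFD, against 8.05 RPKM in the control library. Of 9 other genes whose transcripts are described as carrying IREs, 1 was more than 2-fold higher (Egln3) and 1 lower (Alas2). Egln3, an oxygen- and iron-dependent prolyl hydroxylase, had a ratio of 2.63 (interval 2.24 to 3.11), at 16.99 RPKM under HFD, against 6.46 RPKM in the control library. Epas1, a hypoxia-inducible factor, stood at 8.59 RPKM under HFD, against 14.5 RPKM in the control library, 1.69 times lower. The median of those 9 was 0.09 and turned to -0.51 without the 20 most abundant genes.

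Genes around the metallothioneins were mixed. Of 8 genes that control them or belong to the family, 6 were listed and 1 (Mt3) was more than 2-fold lower, with a median of -0.24 that turned to 0.01 when scaled to the total of protein-coding genes. Mtf1, the factor that binds metal response elements, stood at 1.82 RPKM under HFD, against 3.42 RPKM in the control library, 1.88 times lower. Nr3c1, the glucocorticoid receptor, stood at 12.9 RPKM under HFD, against 9.48 RPKM in the control library, and 2 genes it is known to induce, Fkbp5 (9.68 and 13.3 RPKM) and Tsc22d3 (18.04 and 13.6 RPKM), differed in opposite directions (HFD, then control). Of 19 zinc transporters, 16 were listed, none more than 2-fold higher and 3 lower, while 12 of the 16 were higher by any amount, with a median of 0.19 that turned to -0.40 without the 20 most abundant genes. Slc39a1, a zinc importer, stood at 68.5 RPKM under HFD, against 41.6 RPKM in the control library, a ratio of 1.65 (interval 1.53 to 1.77). Slc30a4, a vesicular zinc transporter, had the highest ratio, at 9.71 RPKM under HFD, against 4.38 RPKM in the control library, which is 2.22-fold in RPKM (interval 1.93 to 2.56) and just under 2-fold on the scale of the count. Slc30a6, a transporter of the secretory pathway, was 6.79 times lower at 1.06 RPKM under HFD, against 7.23 RPKM in the control library, and the importers Slc39a5 and Slc39a6 were listed at 0 under HFD and at 2.27 and 1.56 RPKM in the control library. All 10 copper genes were listed, none more than 2-fold higher and 2 lower, with a median of -0.33. These were Atp7b, a copper exporter, at 7.36 RPKM under HFD, against 17.5 RPKM in the control library, and Ccs, the copper chaperone of superoxide dismutase, at 13.2 RPKM under HFD, against 27.8 RPKM in the control library. The related exporter Atp7a differed the other way, at 6.35 RPKM under HFD, against 3.17 RPKM in the control library, a ratio of 2.001 (interval 1.75 to 2.28).

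**Figure D5:**
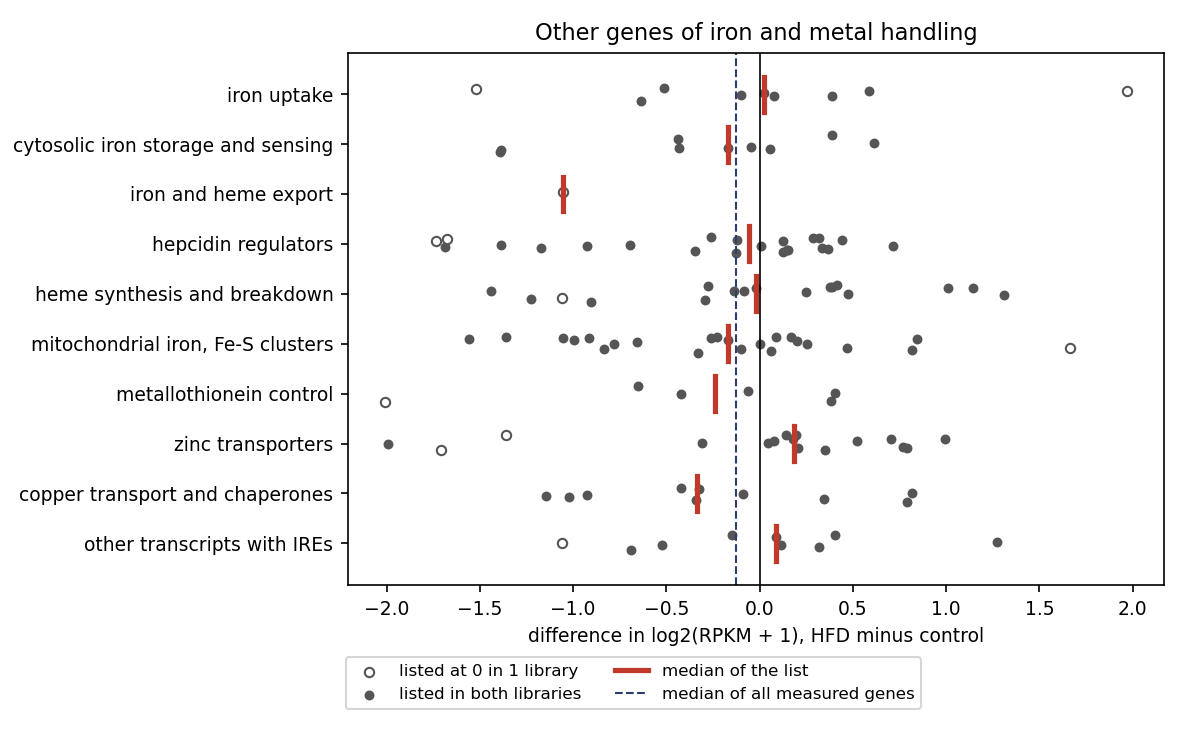
Difference in log2(RPKM + 1), HFD minus control, for each listed gene of 10 further lists of iron and metal handling; red bars are list medians, the dashed line the median of all measured genes (-0.13) and open points genes listed at 0 in 1 library. Medians of lists of more than 1 listed gene lie between -0.33 (copper) and 0.19 (zinc transporters), with single genes on both sides of 0 in each of these lists.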

How the data were processed

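RNA was measured in 2 libraries, 1 of parietal cells from HFD-fed mice and 1 of parietal cells from control mice. Per the labels' protocols, DNase I digestion and ribosomal RNA depletion preceded library making, and libraries were made with an Ion Total RNA-Seq kit. Bedtools 2.25.0 and the build mm10 were used, per the submitters' processing notes. The aligner, the gene annotation and the counting rule with its use of strand are not given in the sources consulted. The authors deposited 1 log2 value per gene under the heading RPKM; the values behave as log2 of RPKM with genes at or below 1 RPKM listed as 0. The planned use of counts did not apply, because the files used here hold none. GENCODE M21 matched 36308 of 38087 identifiers, and 1779 did not match. RefSeq (GRCm38.p6) gave promoter windows.

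Values were used as deposited. Single genes were compared as ratios of RPKM, lists on log2(RPKM + 1), which understates the change of low genes. Depth was recovered from whole steps of low values of single-exon genes: 94 of 189 values (49.7%) in the HFD library and 259 of 724 (35.8%) in the control library were whole within 0.005 of a step. Reads behind a value were estimated from RPKM, exon length and depth, and 95% intervals of ratios are exact conditional binomial ones. The labels name no molecular identifiers, and such reads are no independent molecules, so intervals cover counting error only. The calculations were tested on simulated data. With 1 library per group there was no p-value, no replicate check and no check for outlying samples.

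The 10 genes, the lists and the markers were chosen with earlier results of these data known. The text names all 10 genes; of each list up to 4 genes of the highest mean level and the genes with the largest and smallest ratio resting on 50 or more estimated reads; the 3 protein-coding genes most like each of 3 members. Other genes named, such as those listed at 0 in 1 library, were chosen after their values were seen. Values of 3 single genes of the lists and markers are not reported here. Alternatives were 4 other scalings, a pseudocount of 0.1 RPKM, other entries of a 0, other minimums and, chosen after seeing the data, reads from the shortest coding transcript, a pseudocount of 1 RPKM for single genes and sums of related copies. Analysis used Python 3.11.15, numpy 2.4.6, pandas 2.3.3, scipy 1.17.1, Biopython 1.88 and matplotlib 3.10.9.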

Additional observations from a re-analysis of the deposited data

How the results depend on the processing

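No paired analysis was possible because each group has 1 library. Under the other scalings, pseudocounts, entries of a 0 and minimums, 21 recomputed log2 values changed sign, 108 kept it at another value, and 3 list medians came to exactly 0 when genes at 0 in both libraries were counted. Another 53 were identical to the reported value; for a gene listed in both libraries the minimums and the entry of a 0 cannot move a ratio, nor can a scaling move a gene at 0, so these say nothing about stability. With the 20 most abundant genes left out of the total, the median of the 10 genes was -0.44, the log2 ratios of Hamp2, Ftl1 and Ireb2 were -0.12, -0.53 and -0.41, and the list medians were -0.50 for iron uptake, -0.40 for zinc transporters and -0.51 for other transcripts with IREs. That scaling gave 1080 genes more than 2-fold higher and 5793 lower in the HFD library (15.7% of calls higher, beside 34.3% as deposited). Scaling to the total of protein-coding genes moved the median of all genes to 0.12 and that of the 10 genes to 0.44, with 44.3% of calls higher. List medians were then 0.094 for storage, 0.22 for hepcidin regulators, 0.26 for heme, 0.10 for mitochondrial iron and 0.011 for metallothionein control. The heme median was 0.016 with the coding median set to 0 and 0.0045 with a trimmed mean. These shifts follow from the scaling itself, which multiplies all HFD RPKM values by the same factor. On the log2(RPKM + 1) scale low values move less than high ones, and values of 0 do not move. With a minimum of 5 RPKM 1092 genes were higher and 1393 lower on the log2(RPKM + 1) scale, since fewer genes were counted. With genes listed in both libraries the counts on that scale were 1008 and 1227, beside 1319 and 1633 as ratios of RPKM without a pseudocount. The minimum of 5 RPKM gave list medians of -0.10 for uptake, 0.066 for hepcidin regulators, 0.11 for heme, 0.38 for metallothionein control and -0.030 for other IRE transcripts; with genes listed in both, hepcidin regulators stood at 0.066 and heme at 0.11. Ftl1 summed with its copies, chosen after seeing the data, had a log2 ratio of -0.16. With read estimates from the shortest coding transcript, the interval of Ireb2 was the only one of 9 to include 1. Depth limits the floor: 1 RPKM of Hamp is about 10.5 reads under HFD, against 4.03 in the control library.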

Other observations

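The hepcidin and metallothionein genes were also set beside their neighbours on the chromosome. Usf2, a transcription factor gene 1215 bases from Hamp, stood at 14.9 RPKM under HFD, against 17.4 RPKM in the control library, a ratio of 0.859. Mag, a myelin gene on the other side of Hamp2, was listed at 0 in both. Nup93, a nuclear pore gene 34236 bases from Mt1, stood at 5.87 RPKM under HFD, against 12.7 RPKM in the control library, a ratio of 0.464 beside 0.360 for Mt1. Bax, a cell death gene 1812 bases from Ftl1, stood at 9.54 RPKM under HFD, against 20.1 RPKM in the control library, whereas Gys1, muscle glycogen synthase, on the other side stood at 15.9 RPKM under HFD, against 13.8 RPKM in the control library.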
